A study of Rattus norvegicus with 6 samples.

Results

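The genes described here move chloride and bicarbonate across an epithelium: the channels Cftr and Ano1, the anion exchangers Slc26a4, Slc26a6 and Slc4a2, the cotransporters Slc4a4 and Slc12a2, and the carbonic anhydrases Car2 and Car12. They were chosen by name, as transporters and enzymes that make oviduct fluid, from 14506 genes whose probe sets carried exactly 1 gene symbol. All 9 were measured, each by 1 probe set. The tissue was the endosalpinx, the inner lining of the oviduct, from 6 adult Sprague-Dawley rats weighing 240 to 280 g, with 1 array per animal. The 3 mated rats had joined fertile males on the evening of pro-estrus (2200 h), had sperm or a plug in the vagina 30 min later, stayed with the males, and were killed 3 h after mating, at 0130 h of estrus. Their uteri held abundant semen. The 3 unmated rats were kept alone from pro-estrus, were killed at 0130 h of estrus, and showed edema of the uterus. By the study's timing, sperm were then in the oviduct and ovulation was about 5 h away. Company of a male, handling and mating cannot be told apart in this design.

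Fluid secretion by an epithelium starts at the basolateral membrane. There Slc12a2 (the cotransporter NKCC1) loads the cell with chloride, and Slc4a4 (NBCe1) brings in sodium with bicarbonate. Carbonic anhydrases interconvert carbon dioxide and bicarbonate on both sides of the membrane. Anions then leave through apical channels and exchangers, and sodium and water follow. In the oviduct this secretion sets the volume and the alkaline, bicarbonate-rich composition of the fluid in which sperm become able to fertilise.

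Markers of the lining were measured in part. Of those listed, 12 of 12 epithelial, 9 of 14 ciliated and 9 of 10 secretory markers were among the genes. The secretory marker Ovgp1 and the ciliated markers Dnah5, Dnah9, Rsph4a, Cfap43 and Mcidas were not. All 12 epithelial markers, 8 of 9 ciliated cell markers and all 9 secretory cell markers lay above a log2 signal of 7.13. This limit is the 95th percentile of 1240 odorant and pheromone receptor genes, which served as a guide to background. Of all genes, 71.1% lay above it, so single counts say little. It was exceeded by 8 of 9 smooth muscle, 10 of 12 fibroblast and 4 of 7 erythroid markers. Fewer cells of a type and less RNA per cell cannot be told apart in such bulk samples. All 9 secretion genes lay above this limit. Car2 was the closest to it, by 0.71 log2 units, and Slc26a6 was 0.95 above it, so their differences may be compressed. Signals of different probe sets are not compared as levels: where a signal is subtracted from that of a related gene, only the change of that difference between the groups has a meaning.

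No secretion gene passed the test of mated against unmated rats after adjustment over all 14506 genes. By limma with Benjamini-Hochberg adjustment, 0 of 9 passed, with adjusted p = 0.984 to 0.985, and 0 genes (0%) passed in the whole table. At an unadjusted p under 0.05, 1 of 9 was found, Slc26a4, against 4.57% of all genes (663). The groups did not overlap for 1 of the 9, again Slc26a4, against 8.47% of all genes. The fold change was above 0 for 7 of the 9, against 53.2% of all genes, and their median log2 fold change was 0.10, against 0.01 over all genes. This median was 0.045 without unmated replicate 2 and 0.15 without unmated replicate 1. Ano1 and Slc4a2 had fold changes below 0. Some of the 10 lists of cell type markers leaned as well: 10 of 12 epithelial, 8 of 9 secretory and 7 of 7 erythroid markers had a higher mean in mated rats, against 1 of 9 ciliated and 0 of 12 fibroblast markers. The median log2 fold changes of these lists were small, at 0.075, 0.06, 0.067, -0.077 and -0.085. Other lists were more mixed, with 3 smooth muscle markers higher and 5 lower, 5 and 4 for endothelium, 4 and 8 for macrophages and leukocytes, 7 and 3 for neutrophils, and 1 and 2 for mesothelium. The part of cell types in the lean of the secretion genes was not tested.

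**Figure D1:**
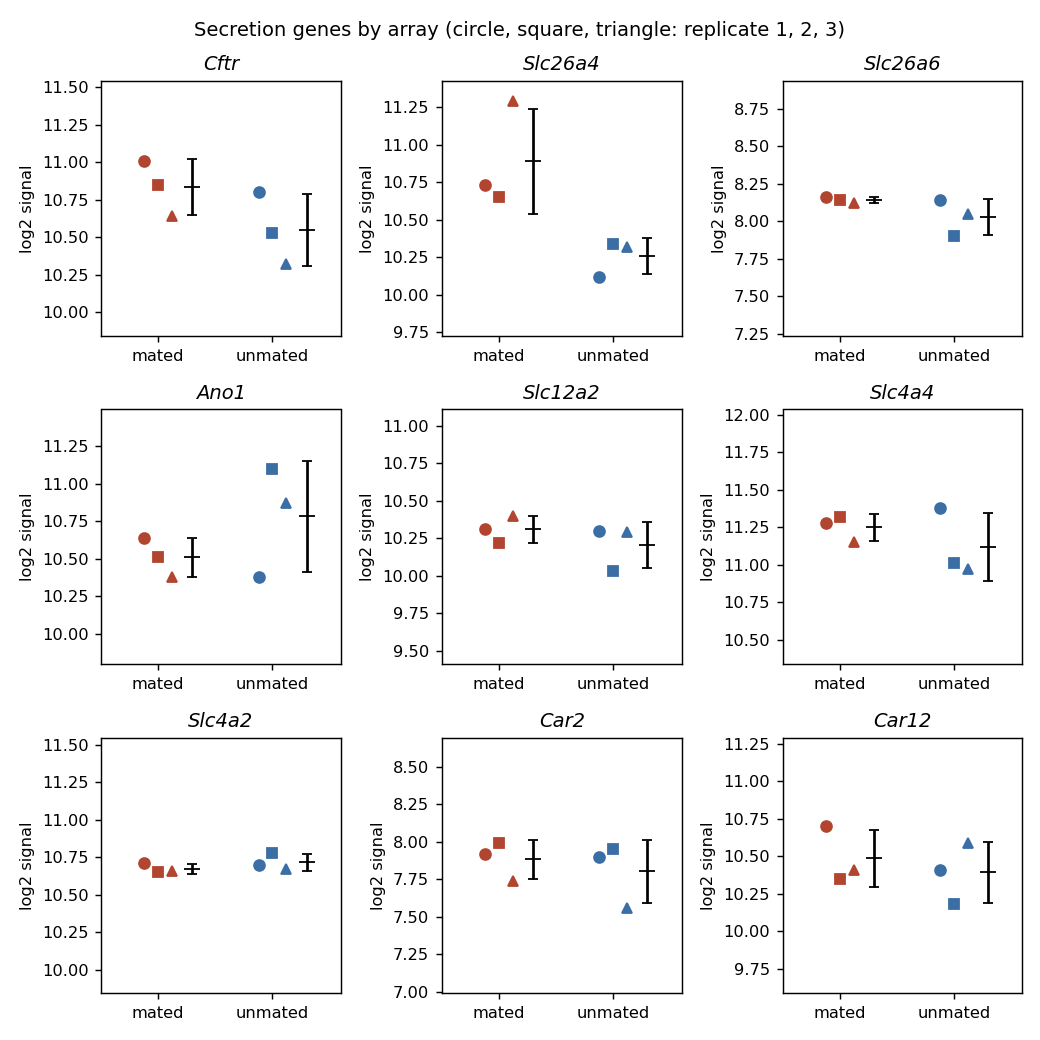
Log2 signal of each secretion gene on the 6 arrays. Red points are mated and blue points unmated rats, the symbols mark the replicate, the black bars are mean ± SD (n = 3 per group), and every panel spans the same range of log2 units. Only for Slc26a4 do the groups lie apart, and Slc4a2 varies least.

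The apical exchanger Slc26a4, or pendrin, trades chloride for bicarbonate or iodide and is known from the inner ear, thyroid and kidney. Its log2 signal was 10.73, 10.65 and 11.29 in mated rats, against 10.12, 10.34 and 10.32 in unmated rats. All mated values lay above all unmated values, and mated replicate 3 stood 0.56 above the next. The means were 10.89 ± 0.35 in mated and 10.26 ± 0.12 in unmated rats (SD, n = 3 per group), a 1.55-fold difference with a 95% confidence interval of 1.19 to 2.01. Its unadjusted p by limma was 0.00479, the 51st smallest of all genes (adjusted p = 0.984), and an exact permutation test of the 6 values gave p = 0.1, the smallest that 3 against 3 allows. Without mated replicate 3 the log2 fold change was 0.43, against 0.63 with all arrays.

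Slc26a6, a chloride and bicarbonate exchanger of the same family, gave 8.16, 8.14 and 8.12 in mated rats, against 8.14, 7.90 and 8.05 in unmated rats. The groups overlapped, and the mated values were within 0.04 of each other. The fold was 1.08 (95% confidence interval 0.95 to 1.23). Within each array, the signal of Slc26a4 minus that of Slc26a6 was 2.57, 2.51 and 3.17 in mated rats and 1.98, 2.44 and 2.27 in unmated rats. These differences did not overlap between the groups and averaged 0.52 log2 units more in mated rats, or 0.31 without mated replicate 3. The exact two-sided permutation p was 0.1, or 0.3 after Benjamini-Hochberg adjustment over the 3 pairs of related genes compared. A p of 0.1 is the smallest that 3 against 3 arrays allow, so none of the 3 pairs could pass the threshold used for genes. The test therefore cannot decide whether the exchangers changed unequally.

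Cftr, the channel mutated in cystic fibrosis, opens with cyclic AMP and passes chloride and bicarbonate. It lay at 11.01, 10.85 and 10.64 in mated rats and at 10.80, 10.53 and 10.32 in unmated rats. The ranges overlapped, with unmated replicate 1 above mated replicate 3. The fold was 1.22 (95% confidence interval 0.98 to 1.52; unadjusted p = 0.0751 and adjusted p = 0.984 by limma). Without unmated replicate 1 the log2 fold change was 0.41, against 0.28 with all arrays.

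Ano1 encodes a calcium-activated chloride channel of secretory epithelia and of the pacemaker cells of smooth muscle. Its values were 10.64, 10.51 and 10.38 in mated rats, against 10.38, 11.10 and 10.87 in unmated rats. Here unmated replicates 2 and 3 were the high arrays, while unmated replicate 1 equalled the lowest mated value. The fold was 0.83 (95% confidence interval 0.63 to 1.09; adjusted p = 0.984 by limma), and the interval runs from a decrease of 1.59-fold to a slight increase. Its log2 fold change was -0.47 without unmated replicate 1 and -0.12 without unmated replicate 2. Kit, a receptor of the pacemaker cells, was looked up after the values of Ano1 were seen and averaged 10.63 ± 0.24 in mated and 10.60 ± 0.14 in unmated rats (SD, n = 3 per group).

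The upstream sequences of Slc26a4, Cftr and Ano1, the members with the widest differences between the groups, are shown to set the regulatory DNA beside these values. They are the 250 bases before the gene start in RefSeq, on the rat assembly GRCr8, 5′ to 3′ on the gene's own strand: chr6:53873217-53873466 (minus strand) for Slc26a4, chr4:47527379-47527628 (plus strand) for Cftr and chr1:209329339-209329588 (minus strand) for Ano1. Capitals mark the GC box GGGCGG, a short motif bound by Sp1-type factors.
Slc26a4: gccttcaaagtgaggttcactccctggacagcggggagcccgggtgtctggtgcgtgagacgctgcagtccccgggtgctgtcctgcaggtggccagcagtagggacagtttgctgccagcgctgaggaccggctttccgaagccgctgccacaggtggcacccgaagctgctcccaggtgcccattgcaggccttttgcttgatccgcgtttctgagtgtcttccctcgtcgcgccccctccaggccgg
Cftr: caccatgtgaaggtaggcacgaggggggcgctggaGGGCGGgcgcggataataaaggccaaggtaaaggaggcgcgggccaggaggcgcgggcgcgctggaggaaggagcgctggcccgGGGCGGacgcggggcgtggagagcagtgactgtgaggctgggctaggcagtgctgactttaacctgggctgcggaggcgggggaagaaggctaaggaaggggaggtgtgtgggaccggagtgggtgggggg
Ano1: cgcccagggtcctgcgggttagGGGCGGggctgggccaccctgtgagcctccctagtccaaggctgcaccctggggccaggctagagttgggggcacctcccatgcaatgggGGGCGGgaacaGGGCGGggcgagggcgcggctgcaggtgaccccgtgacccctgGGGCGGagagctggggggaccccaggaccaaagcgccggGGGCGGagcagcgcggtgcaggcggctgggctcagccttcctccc
The window of Ano1 held 5 GC boxes and that of Cftr 2, while these letters were not in the window of Slc26a4. GC boxes on either strand were found in 4 of the 7 members with an entry in the table (Ano1, Cftr, Car12 and Slc12a2), against 30.5% of 33469 windows of the same length. The members' windows were rich in G and C, at 58.4% to 83.2% against a median of 51.2%. The other 8 motifs searched on both strands were not found in any of the 7 windows: the cyclic AMP response element TGACGTCA (1.59% of all windows) and its core TGACG (18.2%), the forkhead motif TGTTTAC (3.21%), TATAAA (12.9%), CCAAT (34%), the E-box CACGTG (5.59%), the AP-1 motif TGANTCA (6.34%) and the hormone receptor core site AGGTCA (14.1%). The core TGACG lies within the full element.

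On the basolateral side, Slc12a2 loads chloride together with sodium and potassium. It gave 10.31, 10.22 and 10.40 in mated rats, against 10.30, 10.03 and 10.29 in unmated rats. The groups overlapped, with only unmated replicate 2 standing lower. The fold was 1.07 (95% confidence interval 0.92 to 1.25).

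Slc4a4, the sodium bicarbonate cotransporter, gave 11.28, 11.32 and 11.15 in mated rats, against 11.38, 11.01 and 10.97 in unmated rats. Unmated replicate 1 was the highest array of all and the other unmated arrays were the lowest. The fold was 1.09 (95% confidence interval 0.91 to 1.32). Without unmated replicate 1 the log2 fold change was 0.26, against 0.13 with all arrays.

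Slc4a2, the anion exchanger AE2, exports bicarbonate across the basolateral membrane in return for chloride. Its signal was 10.71, 10.65 and 10.66 in mated rats, against 10.70, 10.78 and 10.67 in unmated rats. It was the steadiest member, with a within-group SD that only 7.41% of all genes undercut. Its fold was 0.97 (95% confidence interval 0.87 to 1.08). The within-array difference of Slc4a4 minus Slc4a2 averaged 0.58 ± 0.09 in mated and 0.40 ± 0.24 in unmated rats (SD, n = 3 per group; exact permutation p = 0.4, adjusted 0.6 over the 3 pairs). The gap between these means, 0.17, was 0.31 without unmated replicate 1 and 0.09 without unmated replicate 2.

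The carbonic anhydrases overlapped between the groups as well. Car2, the fast cytosolic enzyme that is also abundant in red blood cells, gave 7.92, 7.99 and 7.74 in mated rats, against 7.90, 7.95 and 7.56 in unmated rats. The lowest array of each group was replicate 3. The fold was 1.06 (95% confidence interval 0.87 to 1.28). Hbb, a globin of red blood cells, was 9.48, 9.86 and 10.15 in mated and 9.60, 9.47 and 9.43 in unmated rats. In replicate 3 of the mated rats Car2 was lowest and Hbb highest, while in replicate 3 of the unmated rats both were lowest. Other red cell markers differed from Hbb there, as Epb42 and Ahsp were highest among unmated rats in replicate 3. Relative to the mean of the 6 arrays, the erythroid median was -0.10, 0.04 and 0.17 in mated rats. In unmated rats it was -0.02, -0.04 and -0.03, lowest in replicate 2. The part of red blood cells in the signal of Car2 was not tested.

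Car12, a membrane-bound enzyme with its active site outside the cell, gave 10.70, 10.35 and 10.41 in mated rats, against 10.41, 10.18 and 10.59 in unmated rats. The highest value was in mated replicate 1 and the second highest in unmated replicate 3. The fold was 1.07 (95% confidence interval 0.87 to 1.31). Car12 minus Car2 averaged 2.60 ± 0.22 in mated and 2.59 ± 0.41 in unmated rats (SD, n = 3 per group; exact permutation p = 1, adjusted 1 over the 3 pairs).

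The intervals bound what these arrays allow. For 6 of the 9 members, Slc26a6, Slc12a2, Slc4a4, Slc4a2, Car2 and Car12, the 95% confidence interval excluded a change of 1.5-fold in signal in either direction, with no correction for the many genes tested. For Slc26a6 and Car2, whose differences may be compressed near the background limit, this does not exclude such a change in RNA. The intervals of Cftr and Slc26a4 reached beyond 1.5-fold upward and that of Ano1 downward. Ano1, Slc26a4 and Cftr were also the most variable members between rats of 1 group, with within-group SDs above those of 95.6%, 94.7% and 90.1% of all genes.

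**Figure D2:**
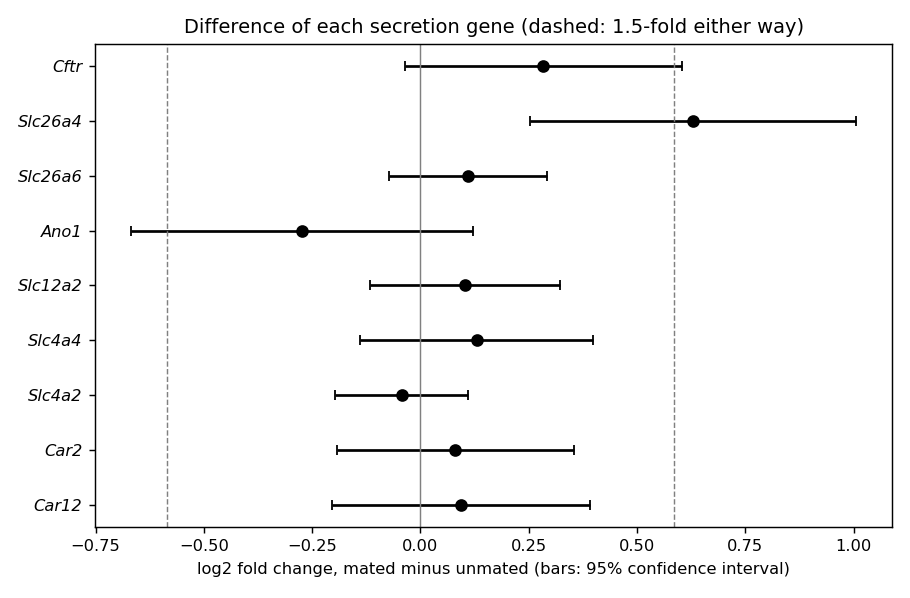
Log2 fold change of each secretion gene, mated minus unmated, with its 95% confidence interval from the limma fit (n = 3 per group). The interval of Slc26a4 alone leaves out 0, with no correction for the many genes tested, and 6 intervals lie inside the dashed lines at 1.5-fold.

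The members did not rank the arrays alike. Relative to each gene's mean over the 6 arrays, Cftr was at 0.32, 0.16 and -0.05 in mated rats and at 0.11, -0.16 and -0.37 in unmated rats, and Slc4a4 took a similar course at 0.10, 0.14 and -0.03 in mated and 0.20, -0.17 and -0.21 in unmated rats. Slc26a4 followed another order, at 0.16, 0.08 and 0.72 in mated and -0.46, -0.24 and -0.25 in unmated rats. Ano1 was high where Cftr was low among unmated rats, at -0.27, 0.45 and 0.22. Among mated rats it fell in the same order as Cftr, at -0.01, -0.14 and -0.27.

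**Figure D3:**
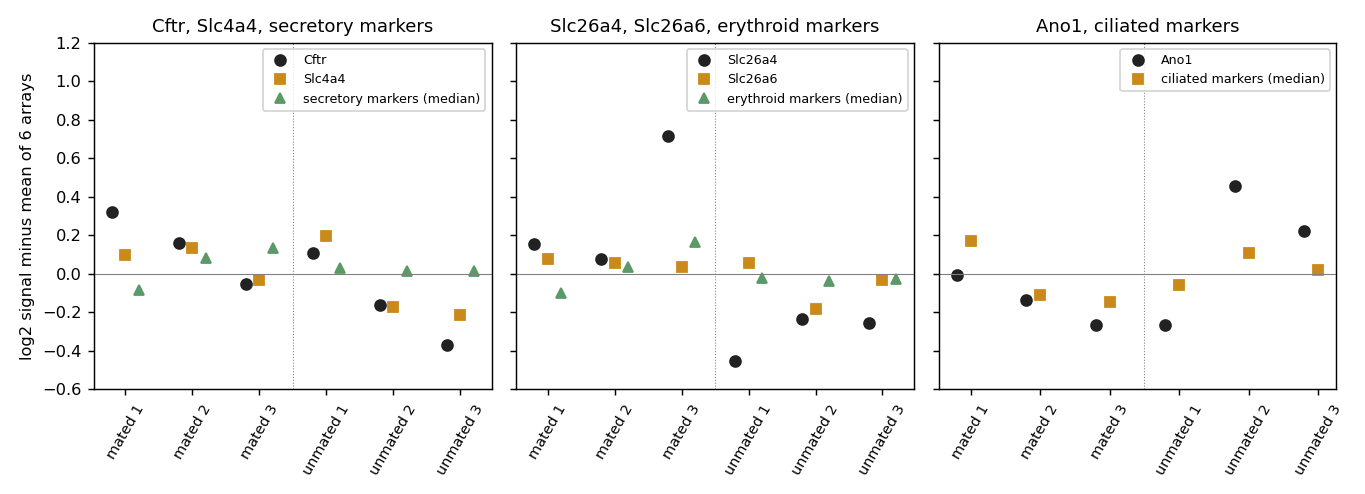
Log2 signal minus the mean of the 6 arrays for 5 secretion genes and for the medians of 3 marker lists, array by array, with mated arrays left of the dotted line. Cftr and Slc4a4 keep a similar order over the arrays, Slc26a4 stands out in mated replicate 3, and Ano1 in unmated replicate 2.

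Cell type markers stand beside these values as medians of lists, relative to the mean of the 6 arrays. The median of the 9 secretory cell markers was -0.08, 0.08 and 0.14 in mated rats and 0.03, 0.01 and 0.01 in unmated rats, while Cftr was lowest among mated rats in replicate 3, where this median was highest. The mean of the same list followed Cftr more closely, at 0.12, 0.11 and -0.02 in mated and 0.11, -0.17 and -0.16 in unmated rats. One of its members, Spp1 (osteopontin), varied widely, at 11.48, 10.33 and 8.58 in mated and 10.74, 8.41 and 8.72 in unmated rats, and in both groups it was highest in the rat in which Cftr was highest. Without Spp1 the mean was -0.08, 0.05 and 0.12 in mated and 0.00021, -0.03 and -0.05 in unmated rats. The median of the 9 ciliated markers was 0.17, -0.11 and -0.15 in mated and -0.06, 0.11 and 0.02 in unmated rats, which is also the order of Ano1 within each group. Over all 6 arrays the orders differed, as this median was highest in mated replicate 1 and Ano1 in unmated replicate 2. The ciliated list is 1 of 10, and no other list had a median in that order. In mated replicate 3, the array in which Slc26a4 was highest, the medians of the erythroid (0.17), secretory (0.14), epithelial (0.08) and endothelial (0.04) markers were at their highest too. The part of these cell types in the values of the secretion genes was not tested.

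Genes with a pattern most like that of Slc26a4 were sought among 10300 genes above the background limit, by the root mean square difference of values centred on each gene's mean over the 6 arrays. The closest were Ahsa2, a co-chaperone gene (0.12 log2 units), Slc5a3, a myo-inositol transporter (0.13), Ltf, which encodes the iron-binding secretory protein lactoferrin (0.15), P4ha1, a subunit of collagen prolyl hydroxylase (0.16), and Csf2rb, a cytokine receptor subunit (0.17). Slc26a4 itself deviated by 0.38 from its own mean on this measure. All 5 were highest in mated replicate 3, where Slc26a4 was highest, which a choice by likeness favours. Slc5a3, for instance, was at 10.92, 10.84 and 11.26 in mated rats, against 10.31, 10.24 and 10.55 in unmated rats. By limma, adjusted p = 0.984 was found for each of the 5.

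Among other genes of anion secretion, 109 of 125 listed in 8 groups were measured and 71 lay above the background limit, which 71.1% of all genes exceeded. Of the 109, 59 had a higher and 49 a lower mean in mated rats. Their median log2 fold change was 0.01, and that of all genes was 0.01. At an unadjusted p under 0.05, 4 were higher and 0 lower, and the share of all genes called higher in this way was 3.02%. Those were Adora2b, an adenosine receptor that raises cyclic AMP, at 0.24 (95% confidence interval 0.05 to 0.42), Car3, a carbonic anhydrase of muscle and fat, at 0.24 (0.05 to 0.44), Slc26a1, a sulfate and anion exchanger, at 0.24 (0.03 to 0.44), and Clcn5, an endosomal chloride and proton exchanger, at 0.24 (0.01 to 0.48). Adora2b and Car3 lay below the background limit, at means of 6.99 and 6.15.

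Within the groups, the 26 chloride channels and partners split into 11 higher and 15 lower, the 8 other SLC26 exchangers into 4 and 4, and the 9 other SLC4 genes into 6 and 3. The 7 other cation chloride cotransporters split into 3 higher and 4 lower, and the one of smallest p was Slc12a7, a potassium chloride cotransporter, at -0.16 (95% confidence interval -0.41 to 0.09). Of the 13 other carbonic anhydrases 10 were higher and 3 lower, at a median of 0.05. The 26 kinases, receptors and scaffolds that control anion secretion split into 15 and 10, and the 7 sodium proton exchangers into 2 and 5, with Slc9a9, an endosomal member, at 0.22 (-0.01 to 0.45). Slc4a9, an anion exchanger of kidney intercalated cells, was the SLC4 member of smallest p, at 0.17 (-0.01 to 0.35), below the background limit.

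Genes that accompany pendrin in kidney intercalated cells and airway ionocytes gave 8 higher and 5 lower of 13, and 8 of the 13 lay below the background limit. The 5 above it were Tfcp2l1, Atp6v1c2, Atp6v0a4, Rhbg and Dmrt2, at means of 9.67, 9.65, 8.46, 7.82 and 7.76. Their log2 fold changes were -0.12, -0.10, 0.12, 0.28 and 0.10, and that of Rhbg had a 95% confidence interval of -0.23 to 0.79. Foxi1, the transcription factor that defines such cells, lay below the limit. It was at 6.82 ± 0.05 in mated and 6.78 ± 0.06 in unmated rats (SD, n = 3 per group). Atp6v1g3, a proton pump subunit with the smallest p of that list, was also below the limit, at 6.72 ± 0.03 in mated and 6.59 ± 0.09 in unmated rats, with no overlap between the groups (adjusted p = 0.984 by limma). Slc26a3, a close relative of Slc26a4, was below the limit as well, with a log2 fold change of -0.03 (95% confidence interval -0.37 to 0.32).

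**Figure D4:**
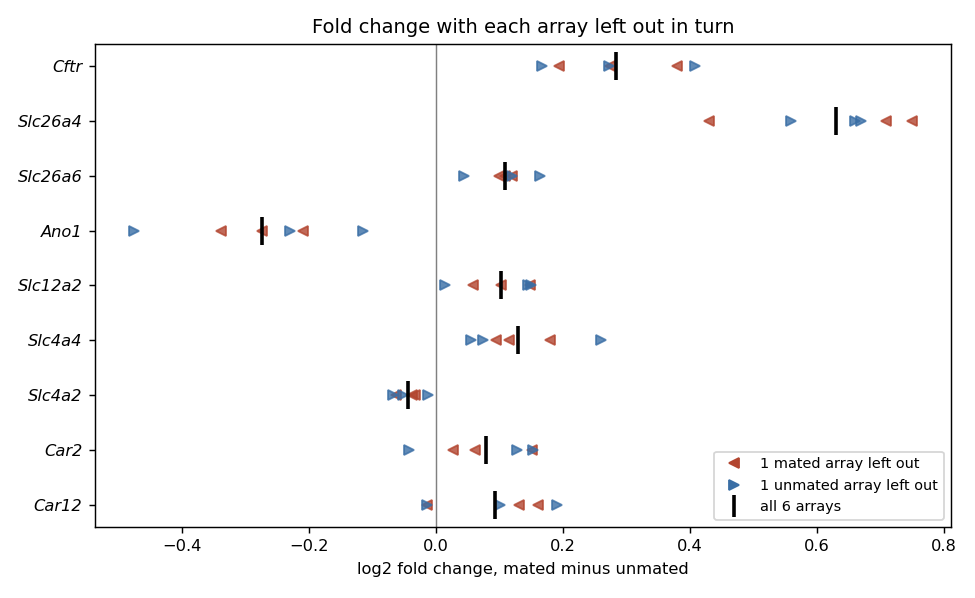
Log2 fold change of each secretion gene with all 6 arrays (black bars) and with 1 mated (red) or 1 unmated (blue) array left out. Slc26a4 ranges from 0.43 to 0.75, Ano1 from -0.47 to -0.12, and Car2 and Car12 cross 0.

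Leaving out single arrays moved the members unevenly. Slc26a4 stayed between 0.43 and 0.75 and at an unadjusted p of at most 0.0178 over the 6 omissions, and it never passed after adjustment. Cftr ranged from 0.17 to 0.41, Slc12a2 from 0.02 to 0.15 and Slc4a4 from 0.06 to 0.26. Car12 was at -0.01 without mated replicate 1 or without unmated replicate 2, and Car2 was at -0.04 without unmated replicate 3. Without unmated replicate 1, 4 members were at an unadjusted p under 0.05, against 4.42% of all genes. They were Slc26a4, Cftr and Slc4a4 as higher and Ano1 as lower, and 0 passed after adjustment by limma. This omission gave the highest count of the 6.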

How the data were processed

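RNA from the endosalpinx of 6 rats (3 mated, 3 unmated) was labelled with biotin by a whole-transcript protocol from 0.3 µg of total RNA and hybridised to Affymetrix arrays, per the labels' protocols. RMA and Affymetrix Expression Console are named in the submitters' processing notes. The authors deposited log2 signals, 1 per probe set and array, to 2 decimals, which were used as they stand. Array medians were 7.89 to 7.94. RMA equalises the arrays and compresses dim signals. The number of arrays limits the precision, and no batch or scan date is given in the sources used here.

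Of 29214 probe sets, 15310 had exactly 1 gene symbol, 323 several and 13581 none listed. The brightest probe set per gene was kept (14506 genes). Mated minus unmated was fitted with limma 3.58.1 (lmFit, eBayes) in R 4.3.3 without covariates, with Benjamini-Hochberg adjustment over all genes and a threshold of 0.05. The fit was also run on simulated data with changes larger than that of any member. That run does not show what the fit would find for changes of the members' size. Single values were tested with exact permutation (SciPy 1.17.1), two-sided. All members were named, together with the gene of smallest p and those at p under 0.05 in each pathway list, the 5 genes most like Slc26a4, and marker genes. Members and lists were chosen with earlier results of these data known. Genes named outside this rule are Kit, Foxi1, Slc26a3, Spp1, Hbb, Tfcp2l1, Atp6v1c2, Atp6v0a4, Rhbg and Dmrt2, chosen after their values were seen.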

Additional observations from a re-analysis of the deposited data

How the results depend on the processing

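Among 16 alternatives, none brought a member past the adjusted threshold (smallest adjusted p = 0.506 by limma), and 7 of 9 members kept their direction wherever they were tested. Slc26a6 and Car2 were not tested without the dimmest 50% of the genes, which left them out. With 1 array left out, the log2 fold change of Car12 ran from -0.013 (without mated replicate 1 or unmated replicate 2) to 0.19, and that of Car2 from -0.042 (without unmated replicate 3) to 0.15. The count of members at an unadjusted p under 0.05, 1 with all arrays, was 1 to 4 with 1 array left out. It was 2 without mated replicate 3, against 3.67% of all genes, and 4 without unmated replicate 1, against 4.42%. Of the 109 other secretion genes, 4 were at that level with all arrays, against 4.57% of all genes. Array weights gave 8, against 8.32% of all genes. Leaving out the dimmest 50% of the genes gave 1, against 3.61% of the genes left. With 1 array left out the count ran from 2 to 11. The 11 came when mated replicate 1 was dropped, where 9.67% of all genes reached that level. Dropping unmated replicate 3 gave 7 (all genes 5.81%). A count of 2 followed from dropping unmated replicate 2 (all genes 2.98%), mated replicate 2 (3.87%) or mated replicate 3 (3.67%). The counts of 7, 8 and 11 thus came in settings where the share of all genes had risen too. The mated minus unmated value of Car12 minus Car2, 0.01 with all arrays, ran from -0.17 to 0.23 with 1 array left out, and the cause was not tested. With the replicate number as a block, 2 members were at an unadjusted p under 0.05 (Slc26a4 and Cftr), against 4.63% of all genes, and 0 passed. The correlations between the deviations of same-numbered rats from their group means were 0.0035, -0.083 and 0.074, and no label gives a shared origin, so the samples were not treated as paired.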

Other observations

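The spread between rats of a group is described here for the secretion genes. The SD over the 3 arrays was larger in unmated than in mated rats for 8 of the 9 members, all but Slc26a4, while it was larger in unmated rats for 42.9% of all genes. The widest case was Ano1, with an SD of 0.13 in mated and 0.37 in unmated rats, and the narrowest mated spread was that of Slc26a6, with an SD of 0.02 in mated and 0.12 in unmated rats. Other pairs lay closer, such as Car12 with an SD of 0.19 in mated and 0.21 in unmated rats. These are descriptions of 3 animals per group and were not tested. All members were measured on the same rats, so they are not separate observations.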
